A study of Mus musculus with 16 samples.

Results

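The mitochondrial carnitine shuttle and β-oxidation spiral were followed through 10 genes, taken by their symbols out of 50559 gene symbols in the table of expected counts. All 10 (Cpt1a, Cpt2, Slc25a20, Acadm, Acadl, Acadvl, Hadha, Hadhb, Acaa2 and Etfdh) were found, and all 10 passed the filter on low counts. Liver RNA came from male C57BL/6J mice that were 6 weeks old when their diet began and were killed after 10 weeks of it, with treatment in the final 4 weeks and 4 libraries in each of 4 groups. LFD mice (called chow in the labels) and HFD mice were gavaged with methylcellulose and injected every 2 weeks with a luciferase control siRNA at 10 mg/kg. HFD + siRNA mice received siRNA to total KHK at 20 mg/kg and methylcellulose. HFD + Inhib mice received the control siRNA at 10 mg/kg and the KHK inhibitor PF-06835919 at 15 mg/kg per dose, gavaged in methylcellulose. By the study's methods, all mice were gavaged 2 times a day. The control and KHK siRNAs therefore differed in dose as well as in target, and the KHK siRNA acts in the liver while the inhibitor is systemic. The study's methods state that mice were injected with saline or insulin 10 minutes before tissue collection, and the labels do not say which library had which.

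Long-chain fatty acids cross into the mitochondrial matrix as carnitine esters. CPT1A on the outer membrane makes the acylcarnitine, the carrier SLC25A20 takes it across the inner membrane, and CPT2 turns it back into acyl-CoA. Acyl-CoA dehydrogenases of different chain-length preference (ACADVL, ACADL and ACADM), the trifunctional protein (HADHA and HADHB) and the thiolase ACAA2 then shorten the chain cycle by cycle, and ETFDH hands the electrons of the dehydrogenases to ubiquinone. In liver the pathway feeds ketone body synthesis, and many of its genes are known targets of the nuclear receptor PPARα.

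Libraries held between 24317111 and 35820234 expected counts (median 29570114). By group, the totals ran from 25572883 to 35125005 in LFD, 24317111 to 35820234 in HFD, 28942052 to 33514313 in HFD + siRNA and 27704386 to 32245606 in HFD + Inhib. Levels are TMM-scaled CPM (counts divided by the scaled library total). Differences are log2 fold changes ± SE, tested by quasi-likelihood in edgeR, with p-values adjusted over 18335 genes by the Benjamini-Hochberg method. A gene was taken as called at an adjusted p under 0.05. The labels do not say from how many cohorts or RNA preparations the mice came, so p-values measure the spread between these 16 samples. In whole liver RNA, fewer cells of a type and less RNA per cell cannot be told apart.

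Khk, the targeted gene, was read first to check the labels. It stood at 214, 233, 349 and 269 CPM in the LFD libraries and at 251, 322, 233 and 251 CPM in the HFD libraries. The HFD + siRNA libraries held 11.8, 9.14, 18.1 and 11.5 CPM, all far below every other library. In HFD + siRNA versus HFD the log2 fold change of Khk was -4.38 ± 0.23 (edgeR, adjusted p = 1.9e-08). The HFD + Inhib libraries held 112, 152, 94.6 and 120 CPM, below every HFD library, with a log2 fold change of -1.14 ± 0.20 (edgeR, adjusted p = 7.5e-04). Khk was thus lower in every siRNA and inhibitor library than in any HFD library, whereas it overlapped between LFD and HFD and cannot check the diet labels.

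In HFD + Inhib versus HFD, 9 of the 10 genes rose and none fell by edgeR's quasi-likelihood test. Over all genes tested, 9.8% were called higher and 8.42% lower in this comparison. The median log2 fold change of the 10 genes was 1.01, against 0.00 for all genes tested, and the individual values ran from 0.21 to 1.33. No gene was lower at an unadjusted p under 0.05 either (0 of 10), and DESeq2 likewise called 9 higher and 0 lower. The genes that rose ran from the carrier to Etfdh, while Cpt1a at the entry did not pass the test.

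Both subunits of the trifunctional protein rose. Hadhb, which carries the thiolase activity, was at 165, 156, 154 and 165 CPM in HFD and at 447, 427, 332 and 405 CPM in HFD + Inhib. The difference was 1.33 ± 0.10 on the log2 scale (2.52-fold, edgeR adjusted p = 2.1e-07), the highest of the 10. Hadha, which carries the hydratase and hydroxyacyl-CoA dehydrogenase activities, went from 242, 269, 269 and 244 CPM in HFD to 564, 529, 536 and 553 CPM in HFD + Inhib. Neither subunit had a treated library in the range of the HFD group, and the log2 fold change of Hadha was 1.09 ± 0.08 (edgeR, adjusted p = 3.4e-07).

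Among the acyl-CoA dehydrogenases the medium-chain enzyme rose most. Acadm was at 274, 261, 302 and 292 CPM in HFD and at 714, 689, 602 and 699 CPM in HFD + Inhib, a log2 fold change of 1.26 ± 0.10 (2.40-fold, edgeR adjusted p = 3.4e-07). Acadl, the long-chain enzyme, was at 171, 161, 207 and 190 CPM in HFD and at 362, 354, 403 and 368 CPM in HFD + Inhib (1.03 ± 0.10 on the log2 scale, edgeR, adjusted p = 2.8e-06). Acadvl, the very-long-chain enzyme bound to the inner membrane, also rose, from 324, 305, 271 and 299 CPM to 473, 491, 361 and 444 CPM. Its groups did not overlap, and its log2 fold change was 0.56 ± 0.10 (1.48-fold, edgeR adjusted p = 0.0011). By the transcript annotation, 26.93% of the 50-base words of Acadvl also lie in transcripts of its neighbour Dvl2, so reads there could have been divided between them.

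Of the carnitine shuttle, the inner-membrane members rose and the outer-membrane member did not pass the test. Slc25a20, the carnitine-acylcarnitine carrier, was at 89.7, 92.7, 97.3 and 92.9 CPM in HFD and at 212, 211, 173 and 201 CPM in HFD + Inhib (log2 fold change 1.10 ± 0.11, edgeR adjusted p = 3.7e-06). Cpt2 was at 99.6, 96.0, 104 and 97.6 CPM in HFD and at 222, 211, 153 and 177 CPM in HFD + Inhib (log2 fold change 0.94 ± 0.12, edgeR adjusted p = 3.5e-05). In neither gene did the groups overlap. Cpt1a was at 464, 487, 531 and 583 CPM in HFD and at 691, 596, 518 and 587 CPM in HFD + Inhib, and there the groups overlapped. Its log2 fold change was 0.21 ± 0.10 (edgeR, adjusted p = 0.169).

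Etfdh, whose product hands the electrons of the dehydrogenases to ubiquinone, also rose. It was at 209, 225, 240 and 209 CPM in HFD and at 469, 424, 426 and 430 CPM in HFD + Inhib (log2 fold change 0.99 ± 0.10, edgeR adjusted p = 3.1e-06). Acaa2, the medium-chain 3-ketoacyl-CoA thiolase, was at 509, 484, 414 and 487 CPM in HFD and at 734, 814, 522 and 660 CPM in HFD + Inhib. Its lowest treated library was just above the highest HFD library, and its log2 fold change was 0.53 ± 0.12 (edgeR, adjusted p = 0.0052). Replicate 3 of HFD + Inhib had the lowest level of its group for Cpt1a, Cpt2, Slc25a20, Acadm, Acadvl, Hadhb and Acaa2. With each library left out in turn, 9 of the 10 genes were called higher in all 8 fits, the fit without replicate 3 included.

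**Figure D1:**
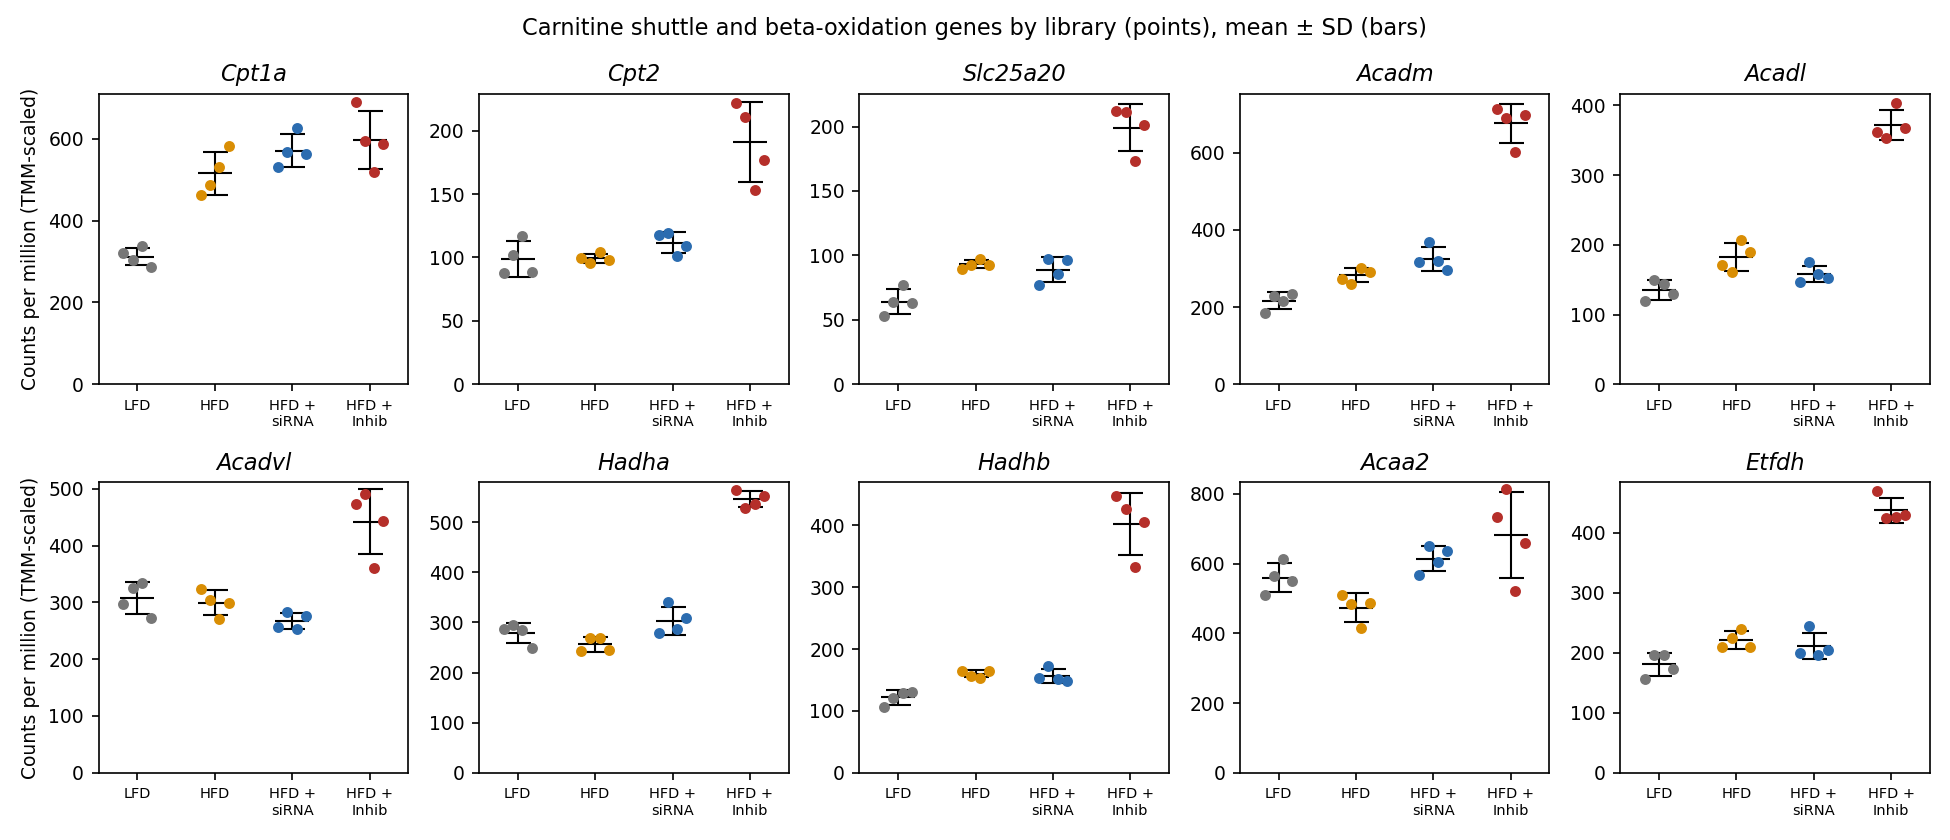
TMM-scaled CPM of each of the 10 genes in the 16 libraries, by group (points, 1 per library), with the mean and SD of 4 libraries as black bars; each axis starts at 0. The HFD + Inhib libraries sit apart from the other groups for Hadha (529 to 564 CPM), Acadm (602 to 714 CPM) and Etfdh (424 to 469 CPM), whereas for Cpt1a the 3 HFD groups overlap and the LFD libraries (287 to 337 CPM) lie below them.

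In HFD versus LFD, which shares the HFD libraries with the comparison above, 6 of the 10 genes were higher and none lower by edgeR's quasi-likelihood test. Over all genes tested, 9.58% were called higher and 8.8% lower. The median log2 fold change was 0.33 for the 10 genes and -0.01 for all genes. At an unadjusted p under 0.05 the counts were again 6 higher and 0 lower, as they were by DESeq2.

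Cpt1a was the gene that rose most on the HFD. Its LFD libraries held 321, 304, 337 and 287 CPM, below all 4 HFD libraries, for a log2 fold change of 0.72 ± 0.10 (1.65-fold, edgeR adjusted p = 3.3e-04). Slc25a20 was at 53.0, 63.6, 76.7 and 63.1 CPM in LFD, also below every HFD library (log2 fold change 0.54 ± 0.11, edgeR adjusted p = 0.0035). Acadl, at 119, 150, 144 and 129 CPM in LFD, had a log2 fold change of 0.43 ± 0.10 (edgeR, adjusted p = 0.0078). Thus the entry enzyme, the carrier and the long-chain dehydrogenase were all separated between the diets.

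Acadm was at 185, 230, 217 and 235 CPM in LFD, with a log2 fold change of 0.38 ± 0.10 (edgeR, adjusted p = 0.0132). Hadhb was at 106, 121, 129 and 131 CPM in LFD, with a log2 fold change of 0.39 ± 0.10 (edgeR, adjusted p = 0.0112). Etfdh was at 157, 197, 196 and 173 CPM in LFD, with a log2 fold change of 0.29 ± 0.09 (edgeR, adjusted p = 0.0443). For each of these genes the lowest HFD library was above the highest LFD library. The call of Etfdh was the weakest of the 6 and was lost with no filter on low counts (adjusted p = 0.0824), with only the compared groups in the fit (adjusted p = 0.0853) and in 6 of 8 fits with a library left out, where its adjusted p reached 0.135.

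The other members did not pass the test between the diets. Hadha was at 286, 294, 284 and 249 CPM in LFD (log2 fold change -0.12 ± 0.08, edgeR adjusted p = 0.34), and Cpt2 at 87.6, 102, 117 and 88.2 CPM (0.01 ± 0.12, adjusted p = 0.973). Acadvl was at 297, 325, 335 and 272 CPM in LFD, with a log2 fold change of -0.04 ± 0.10 (edgeR, adjusted p = 0.842). Acaa2, at 511, 564, 614 and 550 CPM in LFD, had no library in the range of the HFD group and a log2 fold change of -0.24 ± 0.12 (edgeR, adjusted p = 0.168).

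In HFD + siRNA versus HFD, 1 of the 10 genes was called higher and none lower by edgeR's quasi-likelihood test. Over all genes tested, 5.2% were called higher and 6.55% lower, so that the count for the 10 genes was close to the background. Their median log2 fold change was 0.06 (0.02 for all genes), with values from -0.20 to 0.38. At an unadjusted p under 0.05, 3 genes were higher and 0 lower, and DESeq2 called 2 higher and 0 lower. The called gene was Acaa2, at 568, 649, 604 and 637 CPM in HFD + siRNA, above all HFD libraries (log2 fold change 0.38 ± 0.12, edgeR adjusted p = 0.0491). That call was lost in each of the 8 fits with a library left out (adjusted p between 0.0644 and 0.154).

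Hadha was at 278, 341, 287 and 308 CPM in HFD + siRNA, likewise above all HFD libraries, with a log2 fold change of 0.25 ± 0.08 (edgeR, adjusted p = 0.0684). The remaining genes had overlapping groups. Cpt1a was at 531, 568, 626 and 562 CPM (log2 fold change 0.15 ± 0.10), Cpt2 at 118, 119, 101 and 109 CPM (0.17 ± 0.12) and Acadm at 317, 368, 319 and 296 CPM (0.20 ± 0.10). Acadl was at 147, 175, 158 and 153 CPM (log2 fold change -0.20 ± 0.10), Acadvl at 257, 283, 253 and 276 CPM (-0.16 ± 0.10) and Slc25a20 at 76.7, 97.1, 85.4 and 96.3 CPM (-0.07 ± 0.11). Hadhb was at 153, 173, 151 and 149 CPM (log2 fold change -0.03 ± 0.10) and Etfdh at 200, 244, 196 and 205 CPM (-0.06 ± 0.09). A value that missed the threshold with 4 libraries per group does not show that the gene did not change.

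The inhibitor and the siRNA were compared directly in HFD + Inhib versus HFD + siRNA, where 8 of the 10 genes were higher and none lower by edgeR's quasi-likelihood test. Over all genes tested, 17.3% were called higher and 16.6% lower in this comparison. The median log2 fold change was 0.95 for the 10 genes and -0.04 for all genes, and no gene was lower at an unadjusted p under 0.05 or by DESeq2 (0 of 10 in both). Hadhb differed most (log2 fold change 1.36 ± 0.10, edgeR adjusted p = 1.0e-07), followed by Acadl (1.23 ± 0.10, adjusted p = 2.7e-07) and Slc25a20 (1.17 ± 0.11, adjusted p = 1.2e-06). Acadm differed by 1.06 ± 0.10 and Etfdh by 1.05 ± 0.10 on the log2 scale. The values were 0.85 ± 0.08 for Hadha, 0.77 ± 0.12 for Cpt2 and 0.73 ± 0.10 for Acadvl. In none of these 8 genes did the groups overlap, a count without a share over all genes to set beside it. Cpt1a (0.06 ± 0.10, edgeR adjusted p = 0.655) and Acaa2 (0.15 ± 0.12, edgeR adjusted p = 0.345) did not pass the test and had overlapping groups.

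**Figure D2:**
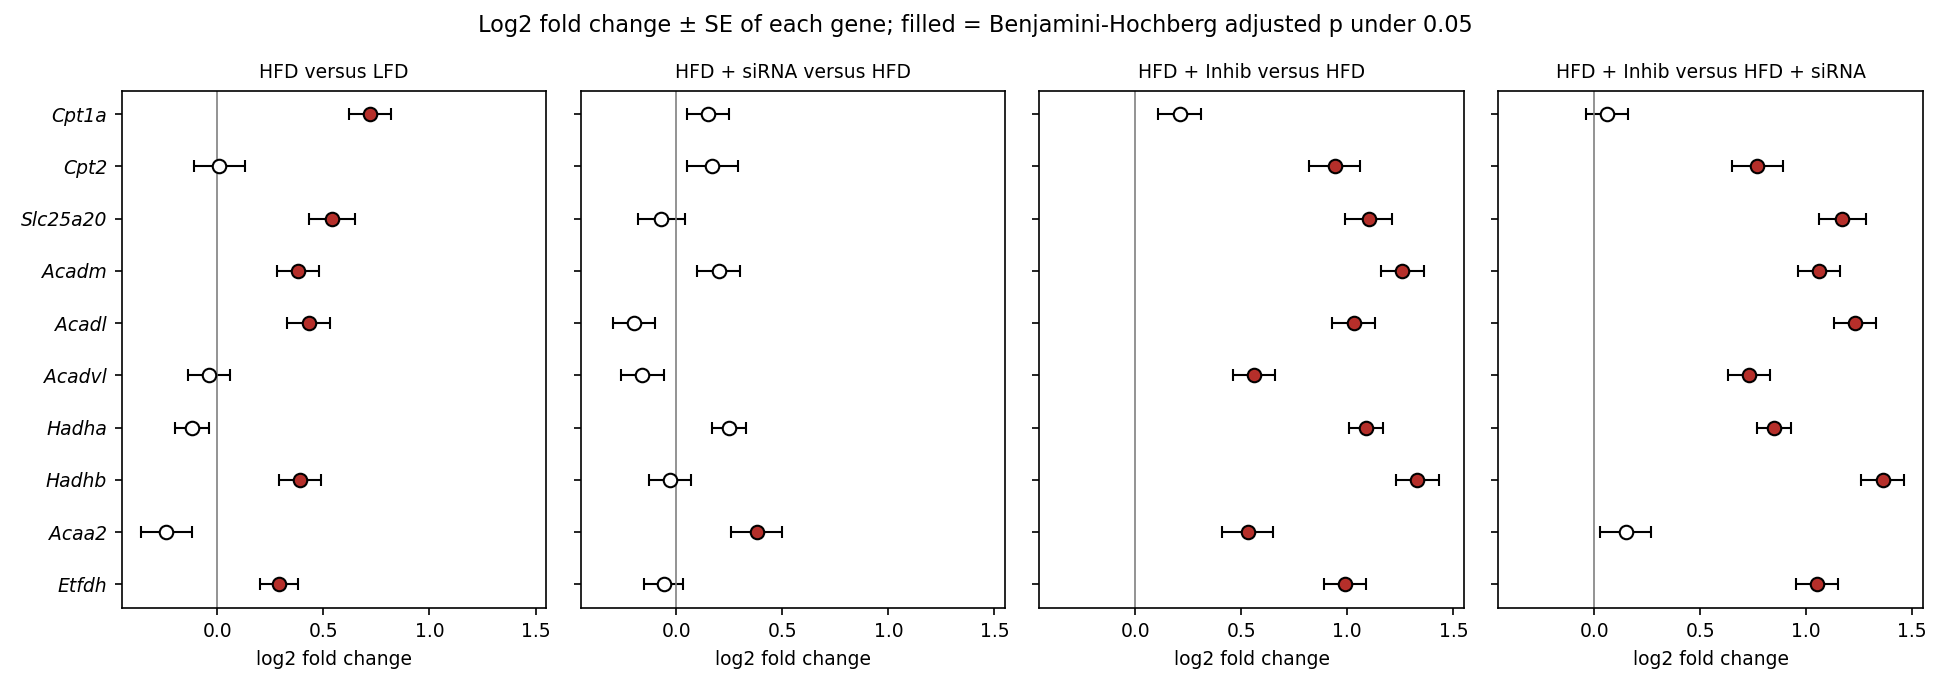
Log2 fold change of each gene (horizontal axis) in the 4 comparisons, with its SE as a bar; filled circles have a Benjamini-Hochberg adjusted p under 0.05 in edgeR's quasi-likelihood test. Of the 10 genes, 9 are filled in HFD + Inhib versus HFD, 8 in HFD + Inhib versus HFD + siRNA, 6 in HFD versus LFD and 1 in HFD + siRNA versus HFD.

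Expression depended on GC content to a degree that varied between libraries, and this moved with the comparisons. Over 8232 genes of higher expression, which are no independent replicates, Spearman's rho between GC content and log2 fold change was -0.53 for HFD versus LFD and 0.51 for HFD + siRNA versus HFD. For HFD + Inhib the value was -0.27 against HFD and -0.54 against HFD + siRNA. The median GC content of the 10 genes was 50.7%, against 49.7% for those 8232 genes. With offsets that remove the trend with GC content and length from each library, 9 genes were higher in HFD + Inhib versus HFD, 6 in HFD versus LFD and 9 in HFD + Inhib versus HFD + siRNA. The added gene was Acaa2 (log2 fold change 0.27, edgeR adjusted p = 0.0376). For the siRNA against HFD the corrected fit called Acadvl lower (log2 fold change -0.31, edgeR adjusted p = 0.022) and Acaa2 no longer higher (0.22, adjusted p = 0.162). These values use the longest coding transcript of each gene, a definition adopted after the corrected results had been seen. With the median over coding transcripts, used first, 5 genes were higher in HFD versus LFD (Etfdh was not, adjusted p = 0.103). The inhibitor against the siRNA then gave 8 genes higher, and Acaa2 was not called (0.11, edgeR adjusted p = 0.45). The count in HFD + Inhib versus HFD was 9 with either definition, and Acadvl was lower with the siRNA with either (-0.27, adjusted p = 0.0483, with the median).

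Levels were compared between genes per kilobase of the longest protein-coding transcript in GENCODE M21. This order assumes reads along whole transcripts and has no basis if the counts came from probes, which the sources used here leave unsettled. In HFD, Acaa2 was the most abundant at 312 ± 27.2 CPM per kilobase (SD, n = 4). Acadm (138 ± 8.80), Acadvl (138 ± 10.1) and Cpt1a (120 ± 12.2) followed, and their ranges of mean ± SD overlapped. Acadl (95.1 ± 10.7) and Etfdh (92.8 ± 6.22) also did not differ beyond their spread. Hadhb (78.0 ± 2.85), Hadha (63.7 ± 3.78), Slc25a20 (52.2 ± 1.75) and Cpt2 (41.8 ± 1.38) came next in that order, each apart from its neighbours. The transcript taken for Hadha is 4017 bases long, and its rank depends on that length.

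The order of levels was not the same in HFD + Inhib. Acaa2 was still the most abundant at 450 ± 81.9 CPM per kilobase (SD, n = 4), but Acadm had come nearer at 330 ± 24.5. Acadvl (204 ± 26.6), Hadhb (197 ± 24.5), Acadl (194 ± 11.2) and Etfdh (184 ± 8.93) formed a group without differences beyond their spread. Cpt1a (139 ± 16.5) and Hadha (136 ± 3.90) lay below them, followed by Slc25a20 (112 ± 10.3) and Cpt2 (80.4 ± 13.4). The level of Cpt1a per kilobase was thus above that of Acadl, Etfdh and Hadhb in HFD and below it in HFD + Inhib.

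Across the 16 libraries, most members followed each other closely. The Pearson correlation of a gene's log2 CPM with the mean of the other 9 genes, scaled, was 0.98 for Hadhb, 0.97 for Slc25a20, Acadm and Etfdh, 0.96 for Cpt2, 0.93 for Acadl and Hadha and 0.82 for Acadvl. It was 0.59 for both Cpt1a and Acaa2. Among the 45 pairs of genes the correlation ran from 0.27 (Cpt1a with Acadvl) to 0.98, with a median of 0.85. These values describe libraries that share groups and are not a test.

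The genes outside the list whose log2 CPM most closely followed the scaled mean of the 10 were Eci1 (r = 0.987), Plin2 (r = 0.983), Acsl1, Suclg1 and Decr2 (r = 0.982 each), among 8566 ranked genes over 16 libraries. Eci1, a mitochondrial enoyl-CoA isomerase needed for unsaturated fatty acids, was at 80.6 ± 5.10 CPM in HFD and 213 ± 31.0 CPM in HFD + Inhib (SD, n = 4). Acsl1, which activates long-chain fatty acids to acyl-CoA, was at 1050.0 ± 69.1 and 3070.0 ± 325 CPM. Plin2, a lipid droplet coat protein, was at 387 ± 55.7 and 1060.0 ± 183 CPM. Suclg1, a subunit of succinyl-CoA ligase in the citric acid cycle, was at 131 ± 3.76 and 202 ± 12 CPM, and Decr2, a peroxisomal dienoyl-CoA reductase, at 179 ± 10.1 and 397 ± 33.9 CPM. In HFD versus LFD, Decr2 was called (log2 fold change 0.28, edgeR adjusted p = 0.0361). Eci1 (0.08, adjusted p = 0.651), Plin2 (0.32, adjusted p = 0.145), Acsl1 (0.11, adjusted p = 0.652) and Suclg1 (0.06, adjusted p = 0.55) were not. A high r over 16 libraries thus does not mean that a gene followed the 10 between the diets.

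Hadha and Hadhb lie head to head on chromosome 5, with 272 bases between their RefSeq start sites (GRCm38.p6), so that the region upstream of each gene is largely that of the other. The 250 bases upstream of Hadhb, at chr5:30155003-30155252 on the plus strand, are shown because most of them lie upstream of both genes. The start site of Hadha lies outside the printed stretch. Capitals mark the 228 bases that also belong to the 250 bases upstream of Hadha on the other strand.
Hadhb and Hadha: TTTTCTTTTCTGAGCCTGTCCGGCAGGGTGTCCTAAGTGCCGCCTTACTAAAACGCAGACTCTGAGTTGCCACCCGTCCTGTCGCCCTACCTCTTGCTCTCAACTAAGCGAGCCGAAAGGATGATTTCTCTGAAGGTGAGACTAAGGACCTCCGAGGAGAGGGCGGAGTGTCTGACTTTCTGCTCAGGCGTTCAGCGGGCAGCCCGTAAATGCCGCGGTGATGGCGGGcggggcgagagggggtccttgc

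The ratio within the pair varied between libraries and groups. Hadhb to Hadha, as a ratio of CPM, was 0.372, 0.413, 0.452 and 0.524 in LFD and 0.681, 0.579, 0.571 and 0.675 in HFD. The HFD + siRNA libraries had 0.552, 0.508, 0.528 and 0.485, and the HFD + Inhib libraries 0.792, 0.806, 0.619 and 0.732. All LFD and all HFD + siRNA libraries were thus below all HFD libraries, while HFD and HFD + Inhib overlapped. The means were 0.440 ± 0.0646 in LFD and 0.627 ± 0.0599 in HFD, then 0.518 ± 0.0282 with siRNA and 0.737 ± 0.0855 with inhibitor (SD, n = 4), and the ratio itself was not tested. The GC content of the transcripts is 45.4% for Hadhb and 51.3% for Hadha, and the GC trend moved with the same comparisons. With the GC correction, HFD versus LFD gave a log2 fold change of 0.32 for Hadhb and -0.06 for Hadha. Of the 50-base words of Hadhb, 18.14% also occur in Gm13910. RSEM divides reads that match several genes, and the deposited values of Hadhb were not whole in any of the 16 libraries.

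**Figure D3:**
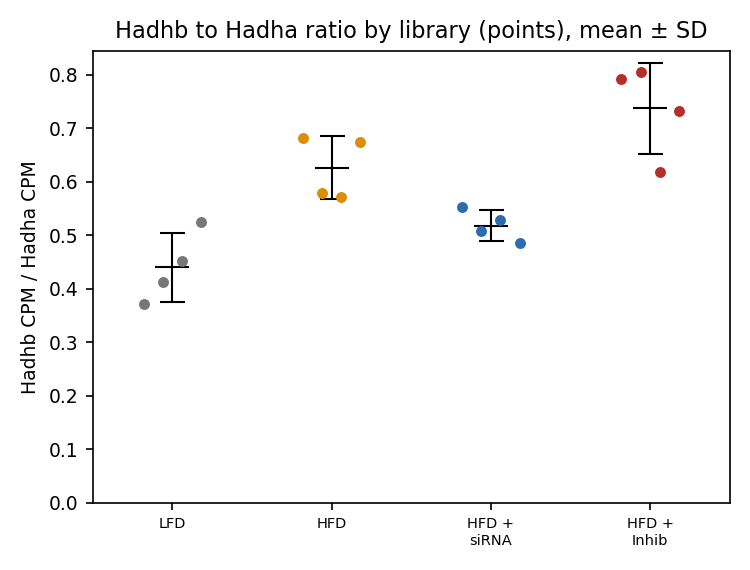
Ratio of Hadhb CPM to Hadha CPM in each library (points), with the mean and SD of 4 libraries per group in black; the axis starts at 0. The LFD (0.372 to 0.524) and HFD + siRNA libraries (0.485 to 0.552) lie below the HFD libraries (0.571 to 0.681), and the HFD + Inhib libraries reach 0.806.

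Nuclear receptors such as PPARα with its partner RXR bind repeats of the hexamer AGGTCA. The 250 bases upstream of the start site were searched on both strands in RefSeq's promoter table (GRCm38.p6) for 9 of the 10 genes. The exact hexamer was in 3 of 9 windows (33.3%), against 14.0% of 32851 windows of the same length. With only 9 windows this difference is small in number and was not tested. The 3 sites are shown on the strand of their gene, with the hexamer or its reverse complement in capitals, at chr19:3323195-3323224 on the plus strand for Cpt1a, chr3:153944875-153944893 on the minus strand for Acadm and chr11:70015498-70015527 on the minus strand for Acadvl.
Cpt1a: cagtttccttacTGACCTcctccccgcagc
Acadm: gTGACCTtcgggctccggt
Acadvl: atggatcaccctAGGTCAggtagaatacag

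A direct repeat of the hexamer (2 copies of AGGTCA in the same direction with any 1 base between them, 13 letters, searched on both strands and holding the hexamer itself) was in none of the 9 windows with 2 or fewer mismatches, against 3.24% of all windows. That says only that these letters are not in these windows. The genes with a hexamer differed among themselves in HFD + Inhib versus HFD. Acadm had a log2 fold change of 1.26, Acadvl of 0.56 and Cpt1a of 0.21.

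Other enzymes of mitochondrial β-oxidation were read beside the 10 genes. Of 15 further genes, 12 rose and none fell in HFD + Inhib versus HFD by edgeR's quasi-likelihood test (12 and 0 also at an unadjusted p under 0.05 and by DESeq2), with a median log2 fold change of 0.90. Over all genes tested, 9.8% were called higher and 8.42% lower. Cpt1b, the isoform of the entry enzyme known from muscle, was at 2.90 ± 0.198 CPM in HFD and 51.8 ± 8.09 CPM in HFD + Inhib (SD, n = 4), a log2 fold change of 4.16 ± 0.23 (edgeR, adjusted p = 4.0e-09). Even then it was far below Cpt1a, at 598 ± 71.2 CPM. The 5 muscle markers Ckm, Acta1, Myh4, Mb and Tnnt3 were at 3 counts or fewer in every HFD + Inhib library and summed to 0.0696 CPM. Crat, which makes and breaks acetylcarnitine, had a log2 fold change of 1.89 ± 0.17 (edgeR, adjusted p = 1.7e-06).

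In HFD versus LFD, 3 of these 15 genes were higher and 0 lower, among them Hadh, the short-chain hydroxyacyl-CoA dehydrogenase (log2 fold change 0.50 ± 0.08, edgeR adjusted p = 6.3e-04), and Decr1, which reduces dienoyl-CoA from unsaturated fatty acids (0.48 ± 0.12, adjusted p = 0.014). With the siRNA, against HFD, 1 was higher and 0 lower, close to the 5.2% called higher over all genes, while the share between the diets stands beside 9.58% over all genes. The gene called with the siRNA was Hsd17b10 (log2 fold change 0.61 ± 0.11, edgeR adjusted p = 0.0026), an enzyme of branched-chain and steroid as well as fatty acid oxidation. HFD + Inhib versus HFD + siRNA gave 12 higher and 0 lower (17.3% and 16.6% over all genes), with a median of 0.54. No gene of the 15 was lower at an unadjusted p under 0.05 or by DESeq2 in any of these comparisons.

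Genes that supply carnitine rose in part. Of 4, 2 were higher and 0 lower in HFD + Inhib versus HFD (4 and 0 at an unadjusted p under 0.05, 2 and 0 by DESeq2). The shares over all genes were 9.8% higher and 8.42% lower. Slc22a5, the plasma membrane carnitine transporter, went from 18 ± 2.56 to 80.1 ± 22.1 CPM (SD, n = 4, log2 fold change 2.15 ± 0.19, edgeR adjusted p = 1.5e-06). Aldh9a1, an enzyme of carnitine synthesis, had a log2 fold change of 0.70 ± 0.09 (edgeR, adjusted p = 3.3e-05). In HFD versus LFD the called gene was Bbox1, the last enzyme of carnitine synthesis (0.44 ± 0.13, adjusted p = 0.0329). Its groups overlapped, and the call was lost with only the compared groups in the fit (adjusted p = 0.0916), with the GC and length correction (0.04, adjusted p = 0.804) and without LFD replicate 1 or 3 or HFD replicate 3 or 4 (adjusted p between 0.0896 and 0.0979). Of the same 4 genes, 0 were called in HFD + siRNA versus HFD by edgeR, by DESeq2 or at an unadjusted p under 0.05. In HFD + Inhib versus HFD + siRNA 3 were higher and 0 lower (17.3% and 16.6% over all genes).

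Malonyl-CoA inhibits CPT1, and of the 3 genes that make and remove it 2 fell with the siRNA and 2 rose with the inhibitor. Over all genes, 6.55% fell with the siRNA and 9.8% rose with the inhibitor, each against HFD. Acacb, the acetyl-CoA carboxylase of the mitochondrial surface, had 241 ± 23.7 CPM in LFD and 104 ± 34.8 CPM in HFD, and 32.1 ± 5.34 CPM with siRNA against 294 ± 37.7 CPM with inhibitor (SD, n = 4). On the log2 scale HFD differed from LFD by -1.21 ± 0.18, and siRNA and inhibitor differed from HFD by -1.70 ± 0.19 and 1.5 ± 0.18 (edgeR, adjusted p = 5.3e-04, 8.5e-05 and 3.2e-05). Acaca, the cytosolic carboxylase of fatty acid synthesis, fell by 1.10 ± 0.16 on the log2 scale in HFD + siRNA versus HFD (edgeR, adjusted p = 8.1e-04). Mlycd, which removes malonyl-CoA, rose in HFD + Inhib versus HFD (0.70 ± 0.16, adjusted p = 0.0068). In HFD + Inhib versus HFD + siRNA all 3 genes were higher (17.3% over all genes), Acacb by 3.19 ± 0.20 on the log2 scale (edgeR, adjusted p = 1.9e-08).

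Transcripts of 8 regulators of the pathway were also read. Of these (Ppara, Rxra, Ppargc1a, Ppargc1b, Esrra, Lpin1, Nrf1 and Tfam), 1 was higher and 0 lower in HFD + Inhib versus HFD, namely Tfam, a mitochondrial DNA-binding factor (log2 fold change 0.34 ± 0.09, edgeR adjusted p = 0.0167). This count is close to the background of 9.8% higher over all genes. At an unadjusted p under 0.05, 3 were higher and 0 lower, and DESeq2 gave 2 and 0. The diets gave 1 higher and 1 lower, also close to the background (9.58% and 8.8%). Ppara itself had 273 ± 30.7 CPM in LFD and 478 ± 92.9 CPM in HFD, and 437 ± 27.3 CPM with siRNA and 586 ± 61.7 CPM with inhibitor (SD, n = 4). It rose in HFD versus LFD (log2 fold change 0.81 ± 0.13, edgeR adjusted p = 7.6e-04) and had 0.29 ± 0.13 in HFD + Inhib versus HFD (adjusted p = 0.12). Nrf1 fell in HFD versus LFD (-0.45 ± 0.09, adjusted p = 0.0027) and Lpin1, a coactivator and phosphatidate phosphatase, in HFD + siRNA versus HFD (-1.07 ± 0.31, adjusted p = 0.0362). The call of Lpin1 was lost in 6 of the 8 fits with a library left out. Set against the siRNA, the inhibitor gave 3 of the 8 regulators higher and 1 lower (17.3% and 16.6% over all genes; 3 and 1 also at an unadjusted p under 0.05 and by DESeq2). Ppara (log2 fold change 0.42 ± 0.13, edgeR adjusted p = 0.0165), the coactivator Ppargc1b (0.76 ± 0.21, adjusted p = 0.0095) and Tfam (0.52 ± 0.09, adjusted p = 5.4e-04) were higher. Rxra, the partner receptor, was lower (-0.54 ± 0.12, adjusted p = 0.0021).

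Genes of peroxisomal β-oxidation and known PPARα targets also rose in HFD + Inhib versus HFD, where 9.8% of all genes were called higher and 8.42% lower. Of 10 peroxisomal genes, 8 were higher and 0 lower (also at an unadjusted p under 0.05 and by DESeq2), with a median log2 fold change of 1.10. Ehhadh, the peroxisomal bifunctional enzyme, went from 278 ± 32.6 to 6970.0 ± 1490.0 CPM (SD, n = 4, log2 fold change 4.65 ± 0.16, edgeR adjusted p = 4.2e-11). Acaa1b, a peroxisomal thiolase, had 2.30 ± 0.18 (adjusted p = 3.1e-07). Of 10 PPARα targets outside the 10 genes, 9 were higher and 0 lower (9 and 0 by DESeq2 and at an unadjusted p under 0.05), with a median of 1.48, led by the fatty acid hydroxylases Cyp4a10 (5.26 ± 0.34, adjusted p = 3.4e-08) and Cyp4a14 (5.13 ± 0.39, adjusted p = 3.1e-07). Fgf21, a secreted hormone, was the target without a rise (-0.95 ± 0.46, adjusted p = 0.169).

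Fewer genes of these lists were called in the comparisons without the inhibitor. In HFD versus LFD, 2 peroxisomal genes and 2 PPARα targets were higher and 0 of either lower, led by Abcd2, a peroxisomal very-long-chain acyl-CoA transporter (log2 fold change 1.56 ± 0.30, edgeR adjusted p = 0.0027), Fgf21 (2.26 ± 0.49, adjusted p = 0.0058) and the pantetheinase Vnn1 (1.44 ± 0.22, adjusted p = 5.3e-04). The peroxisomal count was 1 with no filter on low counts. Over all genes 9.58% were higher between the diets and 6.55% lower with the siRNA, so that 2 genes of a list of 10 are about 1 more than the background. With the siRNA, against HFD, Abcd2 (-1.15 ± 0.30, adjusted p = 0.0195) and Ehhadh (-0.65 ± 0.14, adjusted p = 0.0084) fell, no peroxisomal gene was higher, and 0 of the 10 PPARα targets were called in either direction (1 lower at an unadjusted p under 0.05, 0 by DESeq2). HFD + Inhib versus HFD + siRNA gave 8 higher and 0 lower in both lists (17.3% and 16.6% over all genes).

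**Figure D4:**
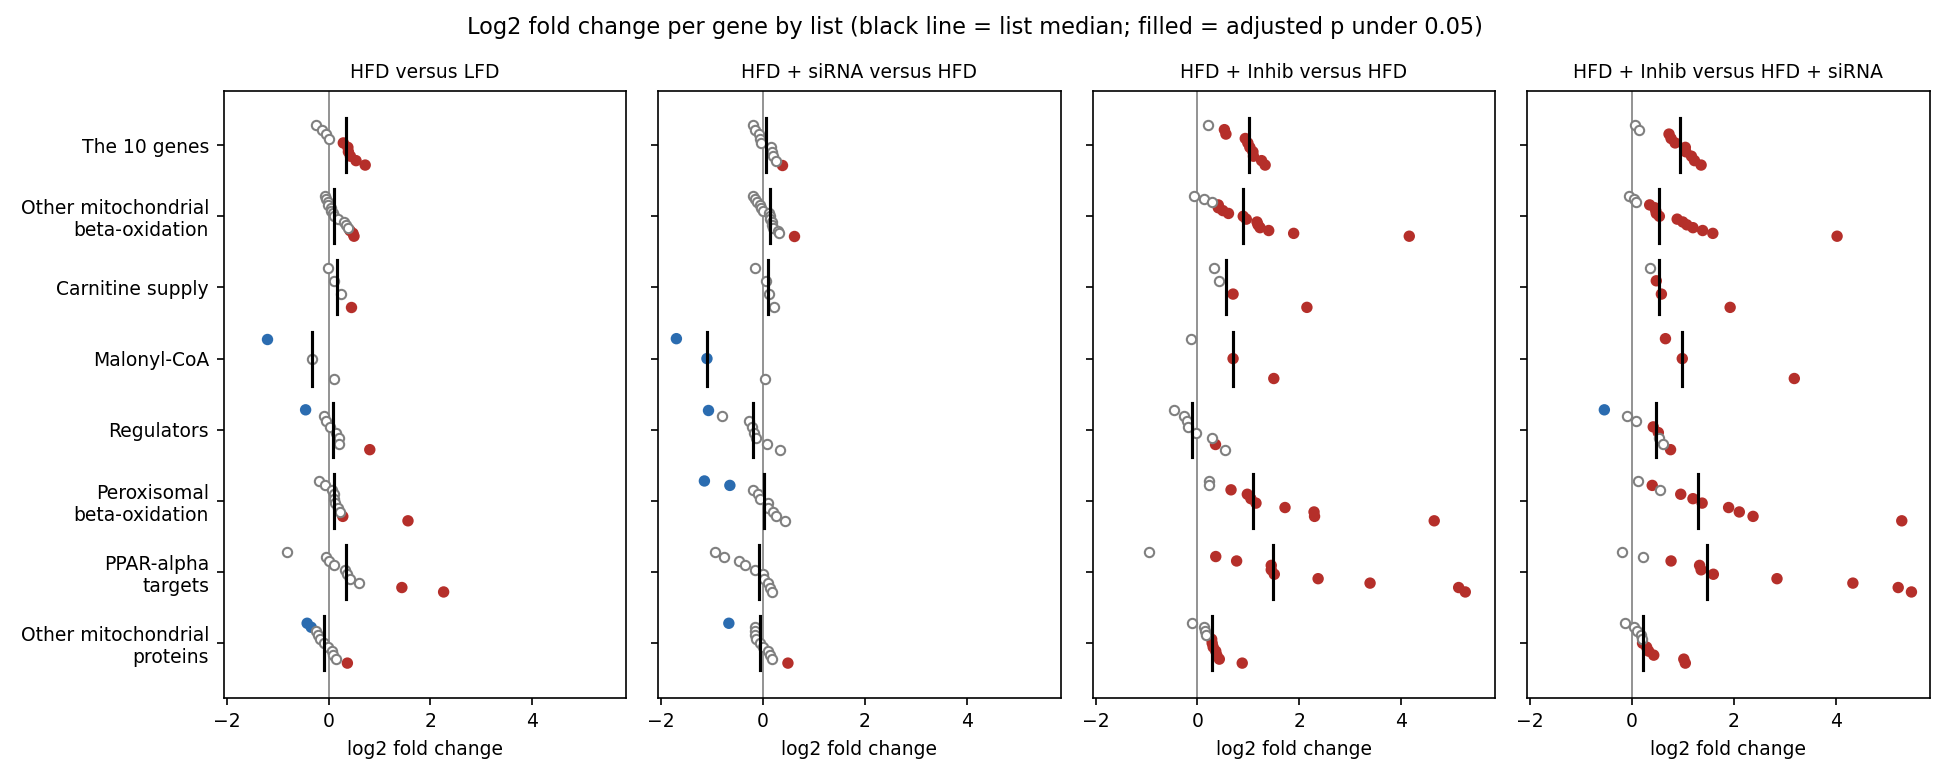
Log2 fold change of each tested gene (1 point per gene, horizontal axis) by list in the 4 comparisons; the black line is the list's median and filled points have an adjusted p under 0.05. In HFD + Inhib versus HFD the medians are 1.01 for the 10 genes, 0.90 for the other mitochondrial β-oxidation genes, 1.10 for the peroxisomal genes, 1.48 for the PPARα targets and 0.29 for other mitochondrial proteins.

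Genes of mitochondrial proteins outside fatty acid oxidation were read for comparison. Of 11 tested, 7 were higher and 0 lower in HFD + Inhib versus HFD (7 and 0 also at an unadjusted p under 0.05 and by DESeq2), with a median log2 fold change of 0.29 and a count of 3 with no filter on low counts. Over all genes, 9.8% were higher and 8.42% lower there. Hspd1, the matrix chaperonin, had 0.88 ± 0.10 (edgeR, adjusted p = 1.3e-05) and Uqcrc2, of respiratory complex III, 0.43 ± 0.07 (adjusted p = 4.7e-04). Citrate synthase (Cs) was at 153 ± 24.2 CPM in HFD and 142 ± 15.2 CPM in HFD + Inhib (SD, n = 4). In HFD versus LFD, 1 was higher (Cs) and 2 lower (Cox4i1 and Atp5b, subunits of complex IV and of ATP synthase). The count of higher genes is close to the background of 9.58%, and 8.8% of all genes were lower. The counts were 1 and 5 at an unadjusted p under 0.05 and 1 and 3 by DESeq2. None of these calls held in every fit. Without LFD replicate 3 or HFD replicate 3 all were lost, Cs was lost with only the compared groups (adjusted p = 0.0549), Atp5b with no filter on low counts (adjusted p = 0.0541) and Cox4i1 with the GC and length correction (-0.04, adjusted p = 0.745). In HFD + siRNA versus HFD 1 was higher (Cox4i1, log2 fold change 0.49 ± 0.12, edgeR adjusted p = 0.015) and 1 lower (Ndufs1, of complex I, -0.67 ± 0.08, adjusted p = 1.4e-04), both outside the range of the 10 genes in that comparison, though a count of 1 in each direction is close to the 5.2% and 6.55% over all genes. HFD + Inhib versus HFD + siRNA gave 6 higher and 0 lower (7 and 0 at an unadjusted p under 0.05, 6 and 0 by DESeq2), with a median log2 fold change of 0.21. The shares over all genes were 17.3% higher and 16.6% lower. There Ndufs1 (1.05 ± 0.08, edgeR adjusted p = 1.3e-07) and Hspd1 (1.02 ± 0.10, adjusted p = 2.0e-06) were above the median of the 10 genes.

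Markers of cell types were read beside these results. The 6 hepatocyte markers summed to 77100.0 ± 7490.0 CPM in LFD and 69000.0 ± 7440.0 CPM in HFD, then 71600.0 ± 5280.0 CPM with siRNA and 45300.0 ± 1430.0 CPM with inhibitor (SD, n = 4), of which Alb made up the most. In HFD + Inhib versus HFD, 3 of the 6 were lower and 0 higher, among them Alb (log2 fold change -0.77 ± 0.13, edgeR adjusted p = 7.6e-04) and Ttr (-0.93 ± 0.12, adjusted p = 5.6e-05). Over all genes, 9.8% were higher and 8.42% lower in that comparison. The 6 macrophage markers went from 232 ± 22.0 to 176 ± 34.4 CPM, with 2 lower, Clec4f and Cd5l. The adipocyte markers summed to 2.84 ± 3.29 CPM in HFD and 34.6 ± 16.3 CPM in HFD + Inhib, nearly all of it Cfd, while Adipoq, Plin1 and Lep were at 3 counts or fewer in every HFD + Inhib library. The pancreas markers, nearly all Cela1, went from 15.6 ± 2.71 to 5.24 ± 1.17 CPM. The other pancreas markers, Cpa1, Prss2 and Amy2a5, had mean levels of 0.00977, 0.0 and 0.085 CPM in HFD and 0.0 CPM in HFD + Inhib. They did not pass the filter on low counts, so Cela1 alone is no measure of pancreas tissue here. No stellate, endothelial or cholangiocyte marker (0 of 4 in each list) was called in that comparison. In HFD + Inhib versus HFD + siRNA, 3 hepatocyte markers were lower (Alb, Ttr and Cps1) and 1 higher (Cyp2e1, log2 fold change 0.91 ± 0.21, edgeR adjusted p = 0.0039). Lower in the same comparison were 4 of the 6 macrophage markers (Clec4f, Cd5l, Csf1r and Cd68, from -0.80 to -0.48 on the log2 scale). Over all genes, 17.3% were higher and 16.6% lower there. The endothelial marker Stab2 (-0.36 ± 0.10, edgeR adjusted p = 0.0129) and Cela1 (-2.22 ± 0.19, adjusted p = 4.9e-07) were also lower, while Cfd was higher (2.23 ± 0.53, adjusted p = 0.0044). With the GC and length correction by the longest transcript, Csf1r (-0.41, edgeR adjusted p = 0.0512), Cd68 (-0.35, adjusted p = 0.0706) and Stab2 (-0.23, adjusted p = 0.0944) were not called. By the median over coding transcripts, Csf1r was called (-0.47, edgeR adjusted p = 0.0316). Cd68 (adjusted p = 0.0538) and Stab2 (adjusted p = 0.105) again were not, whereas Clec4f and Cd5l were called with both corrections. Between the diets, Apoa1 was lower in HFD than in LFD (-0.50 ± 0.15, edgeR adjusted p = 0.0333), and Cfd (2.29 ± 0.71, adjusted p = 0.0339) and Cela1 (0.66 ± 0.18, adjusted p = 0.0185) were higher. The Cfd groups overlapped, and HFD replicate 2 stood apart at 6.70 CPM against 1.79, 0.797 and 1.06 CPM in the other HFD libraries. It was also the HFD library with counts of Adipoq (10), Plin1 (9) and Lep (21), which were at 0 in the other HFD libraries. Mean levels of Adipoq and Plin1 were higher in LFD (0.177 and 0.161 CPM) than in HFD (0.0642 and 0.0578 CPM). Their highest LFD libraries (0.478 and 0.448 CPM) were above HFD replicate 2 (0.257 and 0.231 CPM), while Lep was at 0 in LFD. Without HFD replicate 2, Cfd had a log2 fold change of 1.15 between the diets (edgeR, adjusted p = 0.22). With the inhibitor against HFD it was then 4.81. Of the 10 genes, 5 were then higher between the diets, 0 with the siRNA and 9 with the inhibitor, and 0 were lower. With a library left out in turn, the diet calls of Apoa1, Cfd and Cela1 were lost in 6, 4 and 2 of 8 fits. So was that of Cd5l in HFD + Inhib versus HFD (5 of 8), Cela1 in HFD + siRNA versus HFD (6 of 8), and Cd68 and Stab2 in HFD + Inhib versus HFD + siRNA (2 and 1 of 8). Other settings ended calls too. Apoa1 between the diets was lost with either GC and length correction (-0.23 and -0.33, edgeR adjusted p = 0.348 and 0.138). With only the compared groups, the diet calls of Apoa1 (adjusted p = 0.079) and Cfd (adjusted p = 0.0838) were lost. That of Cfd was also lost with the replicate block (adjusted p = 0.0698). Cela1 with the siRNA was lost with either correction (0.43 and 0.47, adjusted p = 0.114 and 0.0803). In HFD + siRNA versus HFD the only marker of these lists called was Cela1, which was higher (0.65 ± 0.18, edgeR adjusted p = 0.0256). The part of these changes in the results for the 10 genes was not tested.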

How the data were processed

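Expected counts for 50559 gene symbols in 16 libraries were used as the authors deposited them, without scaling between libraries, and 15.1% of the values are not whole. The submitters' processing notes name STAR, RSEM and mm39, with no versions given in the sources used here, while the study's methods name HTG EdgeSeq, a probe assay. Which assay made the table is unsettled, and statements on GC content, shared reads and levels per kilobase assume reads along transcripts.

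Counts were rounded. Genes were kept by filterByExpr (minimum count 10, minimum total 15), leaving 18335 of 33142 with any count. TMM factors were between 0.929 and 1.09. All 16 libraries were fitted together with edgeR 4.0.16 (R 4.3.3), the common dispersion was 0.038, and 4 comparisons were tested by the quasi-likelihood test with Benjamini-Hochberg adjustment. SE is the log2 fold change divided by the square root of F. Within groups, chi-square per gene was 20.5 to 152.2 over 24 pairs, so no library was counted as a repeat.

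Alternatives were DESeq2 1.42.0, its size factors, no filter, at least 10 counts in every library, a block for the replicate number, only the compared groups in the fit, each library left out, and offsets for GC content and length (15858 genes, 86.5%, longest coding transcript of GENCODE M21). GC content and length were first taken as the median over coding transcripts. The longest transcript was chosen after the corrected results had been seen, and both are reported. Scripts were tested on simulated data, where small changes (about 0.5 on the log2 scale) were mostly missed, and the sizes and pass rule of that test were reset after its first run failed it. Upstream sequence is from RefSeq (GRCm38.p6), not the submitters' build. The 10 genes and all lists were chosen with earlier results of these data known. From each list were named, per comparison, the 2 largest increases and 2 largest decreases among genes with an average log2 CPM over all libraries of 1 or more and an adjusted p under 0.05, and 5 genes outside the 10 (average log2 CPM of at least 3) that correlated best with their mean. Other list genes were named after their values were seen.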

Additional observations from a re-analysis of the deposited data

Results flagged for a closer look

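In 44 sets of 4 libraries (the 10 genes and Khk in each group), the gap from the most extreme library to its nearest neighbour, divided by the range of the group, was set against the 95% critical value of Dixon's test for 4 values. Chance passes this in about 1 in 20 sets, and 2 sets passed it. Hadhb in replicate 2 of HFD + siRNA was high (173 CPM against 149 to 153 CPM, ratio 0.832). Etfdh in replicate 1 of HFD + Inhib was high (469 CPM against 424 to 430 CPM, ratio 0.863).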

How the results depend on the processing

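Over the 10 genes and 4 comparisons, 605 of 640 alternative values kept their direction and their side of the threshold, 22 lost a call, 4 gained one and 9 changed sign. In HFD versus LFD, Acadvl was at 0.10 with the GC and length correction by the longest coding transcript (chosen after seeing the data) and at 0.09 by the median over coding transcripts (used first), and the values that changed sign with a library left out were 0.01 for Acadvl (without LFD replicate 3 or HFD replicate 3), -0.04 for Cpt2 (without LFD replicate 1 or 4) and -0.01 for Cpt2 (without HFD replicate 3). Over those 8 fits Cpt2 ran from -0.04 to 0.11 and Acadvl from -0.08 to 0.01. In HFD + siRNA versus HFD, Hadhb was at 0.01 and 0.06 with these corrections. None of these values was called, and the cause was not tested.

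In HFD + siRNA versus HFD the number of the 10 genes called higher was 2 by DESeq2, 0 with the size factors of DESeq2, 0 with no filter on low counts, 0 with the GC and length correction by either transcript definition, and 0 in each of the 8 fits with a library left out, while the number called lower was 1 with either correction and 0 otherwise. The diets differed in 5 genes, all higher, with no filter, with only the compared groups in the fit and with the correction by the median, and in 6 otherwise when no library was left out. With a library left out, HFD versus LFD gave 5 to 6 genes higher, HFD + Inhib versus HFD 9 and HFD + Inhib versus HFD + siRNA 8.

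With the replicate number as a block, 0 of the 10 genes were called higher in HFD + siRNA versus HFD (Acaa2, adjusted p = 0.0534), and no other call of the 10 genes changed. The numbers were not taken as a pairing: deviations of same-numbered libraries correlated between -0.13 and 0.34, not all above 0.1, and not every library correlated best with its own number. The number of libraries, 4 per group, limits what can be said of small changes such as those of HFD + siRNA versus HFD.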
